A study of Homo sapiens with 3 samples.

Results

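The replication-dependent histone genes encode the bulk of the proteins around which DNA is wound. They were taken from the deposited gene table as protein-coding rows named H1-1 to H1-6, H2AC, H2BC, H3C or H4C with a number, and 66 of 46427 genes met that rule. There were 6 H1, 16 H2A, 17 H2B, 13 H3 and 14 H4 genes. The study asked what suppressing SPRR1A changes in these cells. The libraries came from MG-OKS, a human line described by its submitters as artificially generated, cancer-stem-like osteosarcoma cells and labelled mesenchymal. One culture had received an siRNA directed at SPRR1A with a lipid reagent, one a scrambled siRNA in the same way, and one was untransfected, all on the same MG-OKS background. Each condition had 1 library made with a stranded mRNA kit, which selects poly(A) RNA, so no difference has a replicate check, no p-value can be given, and every statement below compares libraries.

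Pairs of H2A, H2B, H3 and H4 molecules form the nucleosome core, and linker histone H1 binds where DNA enters and leaves it. Most of these genes lie in clusters, lack introns and are transcribed in S phase under the coactivator NPAT, which cyclin E and CDK2 phosphorylate. Their messages normally end in a conserved stem-loop bound by SLBP in place of a poly(A) tail. Some members also give longer polyadenylated messages, mostly described in differentiated or non-dividing cells. A poly(A)-selected library therefore holds only part of the histone message, and how much of it was not measured.

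The libraries held 34453554, 36533542 and 40050593 counts in SPRR1A siRNA, scrambled siRNA and untransfected cells. SPRR1A itself had 0 counts in each, so the targeted transcript could not check the labels. All 10 mesenchymal markers looked up passed the minimum of 1 CPM (a count scaled to a fixed library size) in at least 1 library, and so did 8 of 10 epithelial markers. The mesenchymal markers summed to 3681, 6393 and 6789 CPM in the SPRR1A siRNA, scrambled and untransfected libraries. By the rule given below, 3 of them (COL3A1, PDGFRB and VIM) were at least 2-fold lower with SPRR1A siRNA than with scrambled siRNA. Among all genes past the minimum this share was 7.26%. Compared with the untransfected library 4 were lower, beside 8.36%. The epithelial markers summed to 1776, 1447 and 3139 CPM. By the same rule, 2 of the 8 past the minimum were lower with SPRR1A siRNA than with scrambled siRNA, and 3 than without transfection. In the scrambled library 4 were lower than in the untransfected one, beside 3.44% of all genes past the minimum. In each comparison 0 were called higher, and 4 of the 8 had a log2 ratio above 0 to the scrambled library. The part of these marker differences in the histone values was not tested. VIM (vimentin) had 1436, 3523 and 3510 TPM and KRT14, a basal keratin, 1934, 1439 and 3739 TPM, in that order of libraries. EPCAM had 8, 14 and 5 counts and CDH1 had 9, 2 and 2, both below the minimum. Of 8 blood and endothelial markers 3 passed it, and the list summed to 11.91, 10.99 and 15.66 CPM. HBA1 had 197, 130 and 241 counts, VWF 179, 228 and 331, and PECAM1 30, 36 and 61, while CD3E, HBB and CDH5 stood at 0 in all libraries.

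Histone messages were more abundant in the SPRR1A siRNA library than in either control, in each core histone type but not in H1-2, which held most H1 counts. Summed over all 66 genes, they took 12311 counts with SPRR1A siRNA, 7963 with scrambled siRNA and 8532 without transfection. That is 361.2, 219.3 and 209.5 CPM. The SPRR1A siRNA library was 1.65-fold above the scrambled library (95% counting interval 1.60 to 1.70) and 1.72-fold above the untransfected library (1.68 to 1.77). The controls were close, with the scrambled library 1.05-fold above the untransfected one (1.02 to 1.08), and 0.995-fold without the most abundant gene, H2BC12. These sums need no filter on low counts and do not depend on how reads were split among histone genes. In RNA from bulk cultures, a larger share of cells making histone message and more message per cell cannot be told apart. The part of the message that carries a poly(A) tail was not measured in any library.

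By type, the sums of the 4 core histones each stood higher and that of H1, mostly H1-2, did not. H2A genes summed to 59.85, 34.83 and 35.99 CPM in the SPRR1A siRNA, scrambled and untransfected libraries, a ratio of 1.72 to the scrambled library (1.60 to 1.85). The 17 H2B genes summed to 209.9, 124.5 and 109.0 CPM, a ratio of 1.69 (1.62 to 1.75). For H3 the sums were 16.69, 10.60 and 11.61 CPM and the ratio 1.58 (1.38 to 1.80), the lowest of the core types, with an interval that overlapped those of the other 3. H4 genes summed to 56.92, 31.67 and 34.25 CPM, a ratio of 1.80 (1.67 to 1.94). H4C15, whose span covers H2AC19 and H3C15, held 756 of the 1940 H4 counts with SPRR1A siRNA. Without H4C15 the H4 ratio was 1.65. Unlike the total, sums by type can depend on how reads were split between overlapping genes of different types. Against the untransfected library the ratios were 1.66 for H2A, 1.93 for H2B, 1.44 for H3 and 1.66 for H4. The 6 H1 genes summed to 17.87, 17.65 and 18.61 CPM, a ratio of 1.01 (0.905 to 1.13) to the scrambled library. The ratio to untransfected cells was 0.960 (0.862 to 1.07). The H1 interval did not overlap that of any core type in either comparison, but H1-2 alone held 558 of the 609 H1 counts with SPRR1A siRNA. The other 5 H1 genes had a ratio of 1.43 (0.921 to 2.24) to the scrambled library, which overlaps all core types. H1 made up 4.95% of histone counts with SPRR1A siRNA, against 8.05% with scrambled siRNA and 8.88% in untransfected cells.

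**Figure D1:**
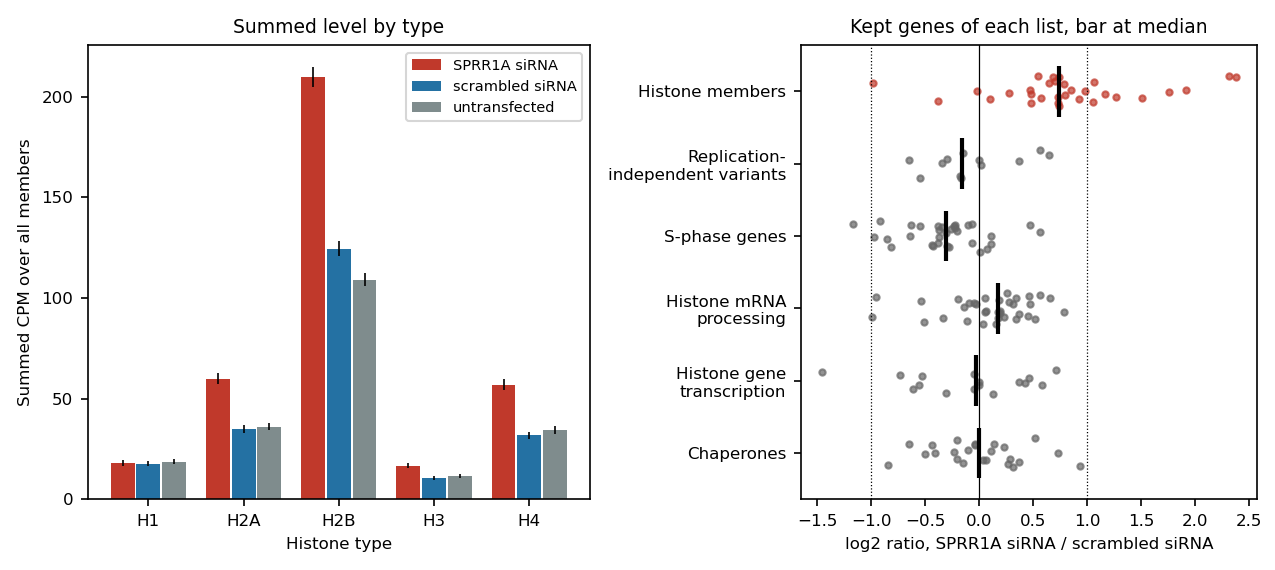
Left, CPM summed over all members of each histone type in the SPRR1A siRNA, scrambled siRNA and untransfected libraries, with exact Poisson 95% intervals. Right, the log2 ratio of the SPRR1A siRNA to the scrambled library for each kept gene of 6 lists, with a bar at the median and dotted lines at 2-fold. The core types stand higher in the SPRR1A siRNA library while that of H1, mostly H1-2, does not, and the histone median of 0.74 lies to the right of the other 5.

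The genes were not evenly covered. Of the 66, 6 had no count in any library (H1-1, H2AC1, H2BC1, H4C6, H4C7 and H4C13) and 46 stayed under 100 counts in every library. A level of 1 CPM in at least 1 library was reached by 31 genes, 24 of them in all 3 libraries. H2AC7, H3C14, H3C15 and H4C9 reached it only through the SPRR1A siRNA library, so that their presence among the 31 already depended on being high there. The 35 genes below the minimum had at most 40 counts and summed to 301, 252 and 340 counts in the SPRR1A siRNA, scrambled and untransfected libraries. Their ratio to the scrambled library was 1.27 (1.07 to 1.51), and to the untransfected one 1.06 (0.903 to 1.24). Of the 60 genes with any count, 47 had a higher CPM in the SPRR1A siRNA than in the scrambled library and 41 a higher CPM than in the untransfected library, whereas the scrambled library was above the untransfected one in 29. Of those 60, 29 lay below the minimum. Among these, 19 were higher than in the scrambled library, but 14 were higher and 15 lower than in the untransfected one. Of the 31 genes, 28 and 27 had a log2 ratio above 0 to the scrambled and untransfected libraries. Over all genes past the minimum 49.9% and 49.6% did, and no share was taken over all genes with any count.

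Genes were called higher or lower when their log2 ratio, computed with a prior count of 2 that draws low counts towards 0, reached 1 or -1 and the 95% interval of the plain ratio did not hold 1. The folds printed are plain ratios, so a gene of few counts can stand just past 2-fold without being called, as H3C4 (log2 -0.99) and H4C9 (log2 0.98) did against scrambled siRNA. Against the scrambled library 9 of 31 kept histone genes were called higher and 0 lower, where the same rule called 3.70% of all 14233 kept genes higher and 7.26% lower. Set against untransfected cells, 9 histone genes were called higher and 1 lower, beside 2.35% and 8.36% of all genes. A call against both controls was made for 7 histone genes, beside 1.03% of all genes, but 3 of the 7 (H2AC7, H3C14 and H3C15) were kept only through the SPRR1A siRNA library. Among the 24 genes past the minimum in every library, 5 were called higher and 0 lower against scrambled siRNA, beside 2.78% and 5.21% of the 12971 such genes. Of the same 24, 6 were higher and 1 lower than in untransfected cells, beside 1.52% and 5.94%, and 4 (H2AC17, H2BC15, H2BC17 and H3C6) were higher than in both, beside 0.648%. Between the controls 0 histone genes were higher and 1 was lower in the scrambled library, beside 1.51% and 3.44% of all genes. The comparisons of the SPRR1A siRNA library share that library, and those with the untransfected library share that one.

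A shift below 2-fold was the common pattern. Over the 31 genes the median log2 ratio was 0.74 against scrambled siRNA, 0.77 against untransfected cells and 0.03 between the controls. Over all kept genes it was 0.00 in each comparison. A ratio of at least 1.5 to both controls was seen in 19 of the 31, beside 5.14% of all genes. An interval above 1 against both was seen in 24 of the 31, beside 26.9%. Both counts include H2AC7, H3C14, H3C15 and H4C9, which were kept only through the SPRR1A siRNA library. A minimum on the mean CPM of the libraries, chosen after seeing the data, left 24 genes. The median log2 ratios of those were 0.73 against scrambled siRNA and 0.77 against untransfected cells. Of the 16 genes with at least 100 counts in every library, 14 had an interval above 1 against each control. Over all kept genes, whatever their depth, the share was 36.4% against the scrambled and 36.9% against the untransfected library. Intervals narrow with depth, and no share was taken over genes of matching depth. The ratios of the 16 to the scrambled library ran from 0.986 for H1-2 to 2.41 for H2BC15 with a median of 1.66. Between the controls they ran from 0.763 for H2AC6 to 1.30 for H2BC5.

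**Figure D2:**
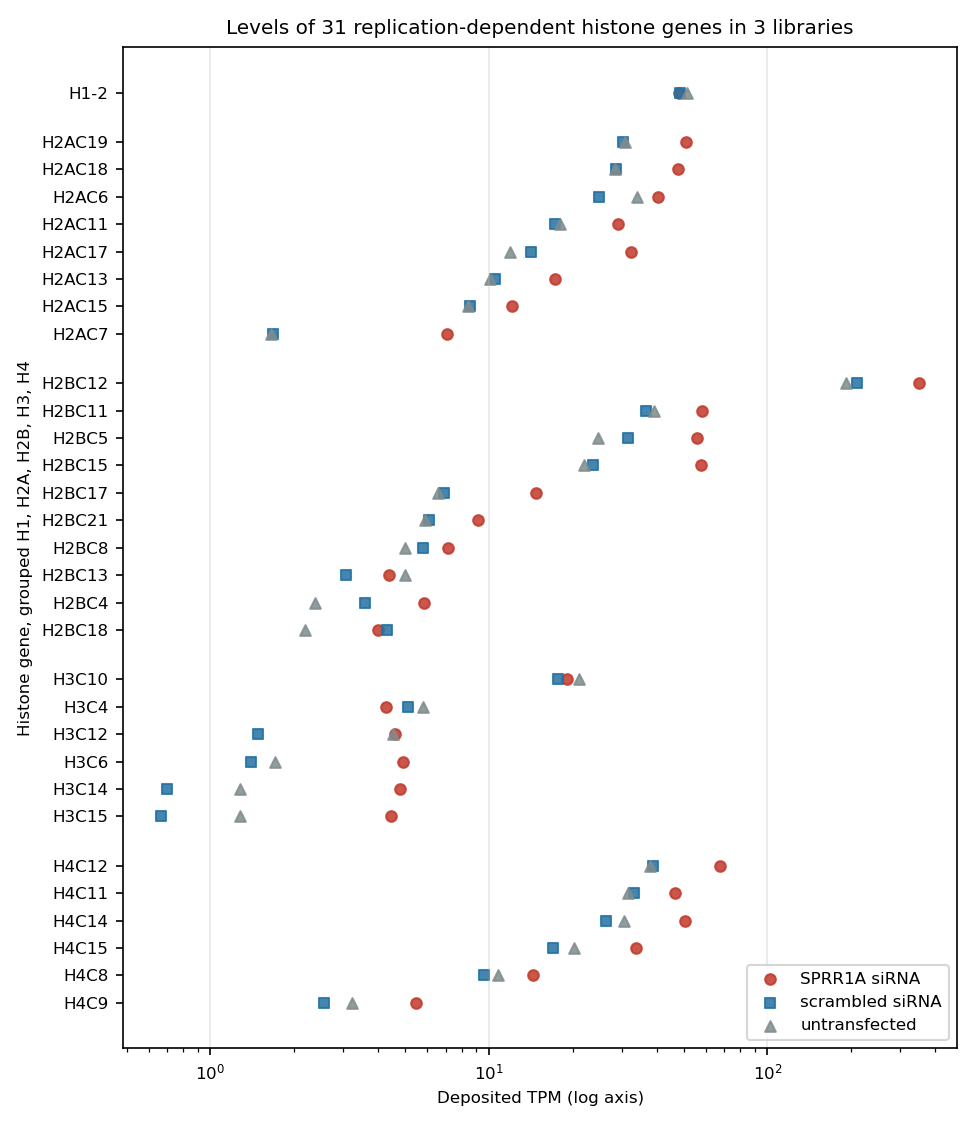
Deposited TPM (log axis) of the 31 histone genes that reached 1 CPM, grouped by type, in the SPRR1A siRNA (circles), scrambled siRNA (squares) and untransfected (triangles) libraries. In 26 of the 31 the SPRR1A siRNA library has the highest CPM, beside 38.8% of all kept genes. The 26 include H2AC7, H3C14, H3C15 and H4C9, which reached 1 CPM only through that library.

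H2A genes supply one partner of the H2A-H2B dimer. All 8 kept H2A genes had their highest CPM in the SPRR1A siRNA library, beside 38.8% of all kept genes. Their log2 ratios to the scrambled library were 0.48 to 1.91. The top of that range was H2AC7, which was kept only through the SPRR1A siRNA library and overlaps H3C4. The next highest was H2AC17 at 1.16. H2AC19 and H2AC18 are copies on chromosome 1 whose reads cannot be assigned with certainty. They had 432 and 406 counts with SPRR1A siRNA, 275 and 261 with scrambled siRNA, and 301 and 277 in untransfected cells. Together they were 1.67-fold above the scrambled library (1.49 to 1.86). H2AC6 had 40.4, 24.9 and 34.1 TPM in the SPRR1A siRNA, scrambled and untransfected libraries. It stood 1.61-fold above the scrambled but 1.22-fold above the untransfected library, and the controls differed, with a ratio of 0.763. H2AC11 and H2AC13 were 1.66-fold and 1.64-fold above the scrambled library without being called.

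H2AC17 (Gene 8336, chromosome 6, 27892699 to 27893185, RefSeq GRCh38.p14) was the H2A gene called higher than both controls besides H2AC7. It had 32.3 TPM in the SPRR1A siRNA library, 14.1 TPM in the scrambled and 11.9 TPM in the untransfected library. The counts were 250, 118 and 107, so the controls lay close together and the SPRR1A siRNA library apart. The ratio was 2.26 (1.81 to 2.83) against scrambled siRNA and 2.79 (2.22 to 3.54) against no transfection.

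H2B genes held most histone counts, 58.1% of them with SPRR1A siRNA, 56.8% with scrambled siRNA and 52.0% without transfection. Of the 10 kept, 8 were highest in the SPRR1A siRNA library, beside 38.8% of all kept genes. The most abundant member of all was H2BC12 (Gene 85236, chromosome 6, 27138293 to 27146858), which is known to give polyadenylated message. It had 350.6 TPM in the SPRR1A siRNA, 210.3 TPM in the scrambled and 190.8 TPM in the untransfected library. From 4664, 2985 and 2920 counts the ratios were 1.67 (1.59 to 1.74) and 1.91 (1.82 to 2.0), both short of the 2-fold threshold. The controls differed by 1.15-fold.

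H2BC15 (Gene 8341, chromosome 6, 27838569 to 27839110) had 57.6, 23.6 and 21.9 TPM in the SPRR1A siRNA, scrambled and untransfected libraries. It was called higher than both controls, 2.41-fold (2.05 to 2.84) and 2.72-fold (2.31 to 3.20), from 496, 219 and 218 counts. H2BC17 was called as well, with 110, 55 and 57 counts and ratios of 2.13 (1.53 to 3.00) and 2.31 (1.66 to 3.23). H2BC5 and H2BC4 were called only against the untransfected library, at 2.36-fold and 2.61-fold. To the scrambled library they were 1.81-fold and 1.74-fold, and the scrambled library was itself 1.30-fold and 1.503-fold above the untransfected one. H2BC11, at 58.1, 36.7 and 39.0 TPM, and H2BC21, at 9.11, 6.07 and 5.89 TPM, were 1.57-fold and 1.49-fold above the scrambled library. H2BC18 did not follow, with 32, 45 and 28 counts and a ratio of 0.758 to the scrambled library whose interval (0.466 to 1.22) held 1.

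**Figure D3:**
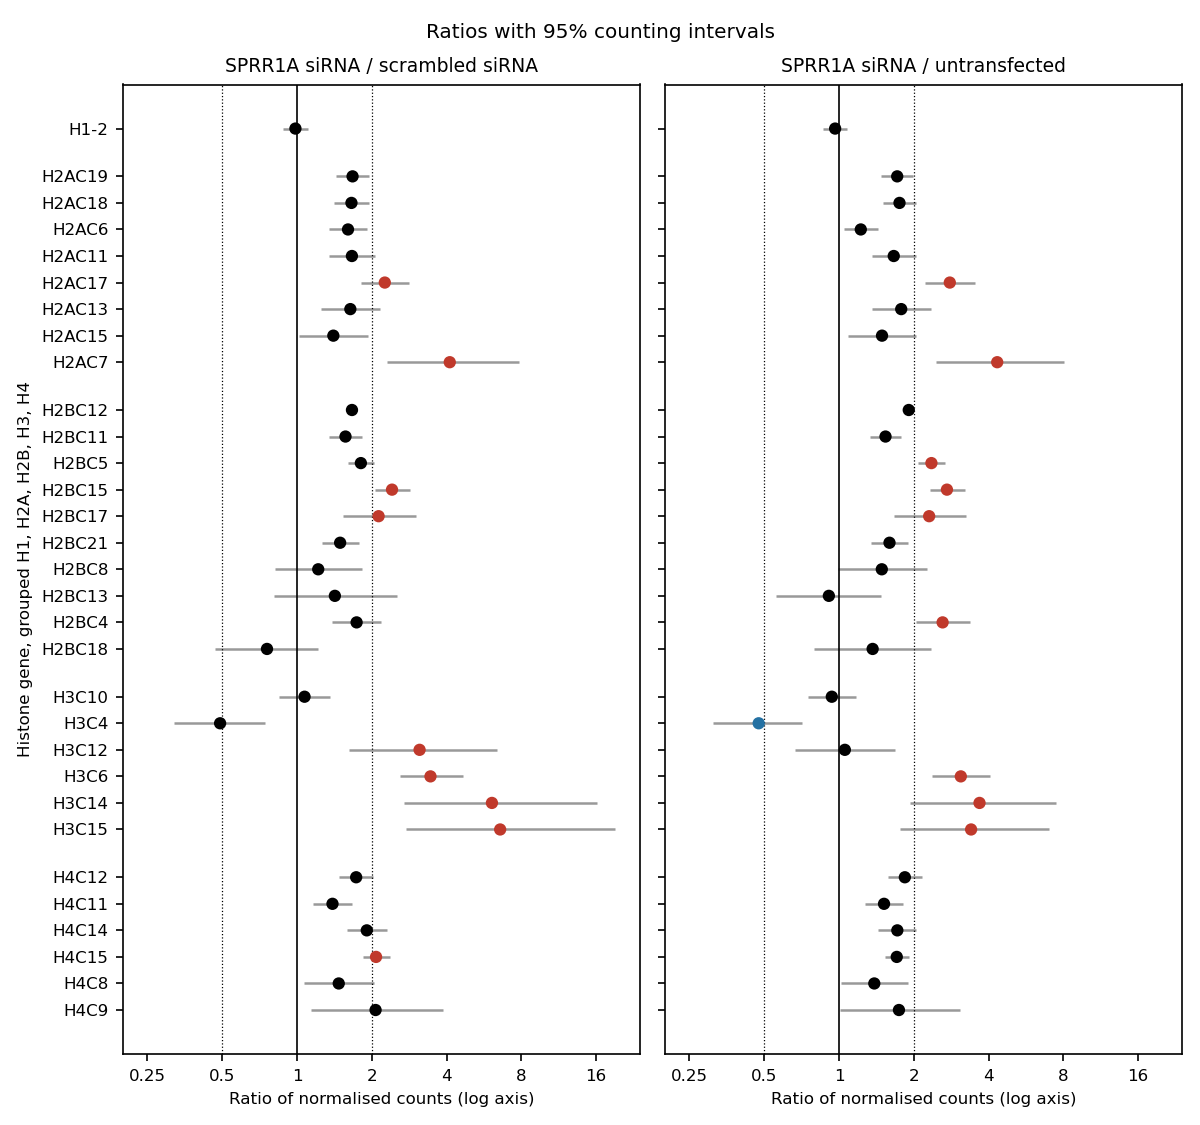
Ratio of normalised counts (log axis) of the SPRR1A siRNA library to the scrambled (left) and untransfected (right) libraries for the 31 kept histone genes, with exact 95% counting intervals as lines. Red points were called higher, the blue point, H3C4, lower, and black points were not called. Dotted lines mark 2-fold. Most points lie between 1 and 2 in both panels, H1-2 lies at 0.986 and 0.965, and the widest intervals belong to H3C14 and H3C15.

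H3 genes had the widest range of log2 ratios to the scrambled library, -0.99 to 2.38 over the 6 kept. The lowest was H3C4, which overlaps H2AC7, and the highest H3C15, a copy of H3C14. Without H3C4, H3C14 and H3C15 the range was 0.10 to 1.75. The most abundant H3 gene, H3C10, barely differed, with 19.1, 17.7 and 21.1 TPM in the SPRR1A siRNA, scrambled and untransfected libraries. Its ratio to the scrambled library was 1.07 (0.848 to 1.36). H3C6 (Gene 8353, chromosome 6, 26224178 to 26227473) had 207, 64 and 80 counts. It was 3.45-fold above the scrambled (2.59 to 4.64) and 3.09-fold above the untransfected library (2.38 to 4.05). H3C14 and H3C15 are copies on chromosome 1 and are uncertain one by one. They had 40 and 37 counts with SPRR1A siRNA, 7 and 6 with scrambled siRNA, and 13 each in untransfected cells. Summed, they were 6.31-fold above the scrambled (3.48 to 12.4) and 3.54-fold above the untransfected library (2.24 to 5.75), from 77, 13 and 26 counts. Both were kept only through the SPRR1A siRNA library, so they were among the kept genes because they were high there. H3C12 had 38, 13 and 43 counts, so that it was 3.12-fold above the scrambled but 1.06-fold above the untransfected library, and the scrambled library was the one that stood apart.

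H3C4 was called lower in the SPRR1A siRNA than in the untransfected library, the only kept histone gene so called, and it cannot be read without H2AC7. It was not called against the scrambled library. H3C4 (chromosome 6, 26196784 to 26199293) had 35, 76 and 88 counts in the SPRR1A siRNA, scrambled and untransfected libraries, and ratios of 0.491 (0.319 to 0.742) to the scrambled and 0.475 (0.312 to 0.711) to the untransfected library. H2AC7 (chromosome 6, 26198784 to 26199293) lies wholly within the span of H3C4, and RefSeq gives one of the starts of H3C4 at the start of H2AC7. H2AC7 was called higher, with 58, 15 and 16 counts and ratios of 4.12 (2.31 to 7.83) and 4.33 (2.46 to 8.07). The pair summed to 93, 91 and 104 counts, a ratio of 1.09 (0.807 to 1.47) to the scrambled library. The length implied by the deposited count and FPKM of H3C4 was 554 bases in the SPRR1A siRNA library, against 944 and 888 bases in the scrambled and untransfected libraries. For H2BC12 the implied length stayed between 897 and 906 bases. Neither call of this pair is therefore certain.

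**Figure D4:**
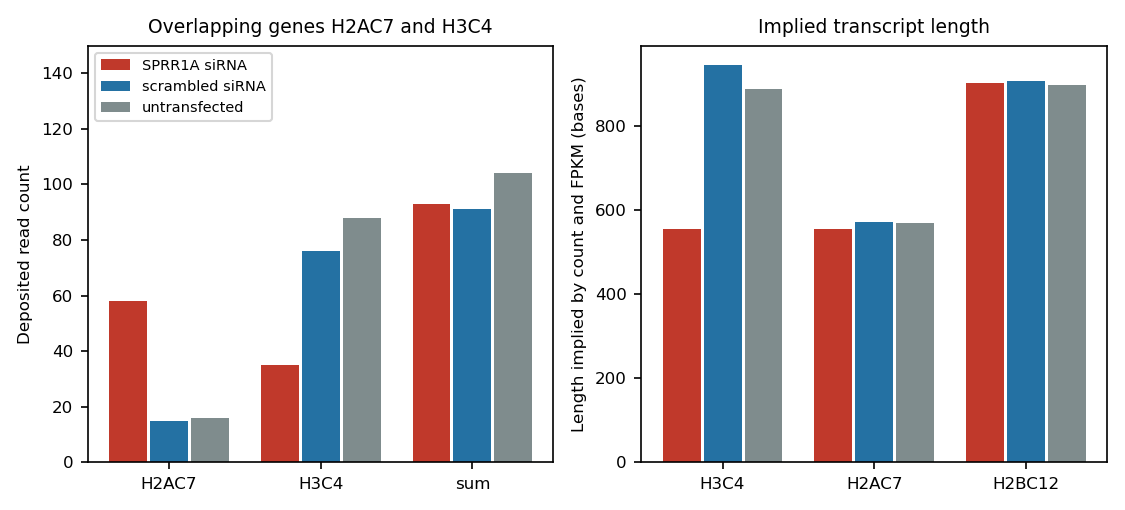
Left, deposited read counts of the overlapping genes H2AC7 and H3C4 and their sum in the SPRR1A siRNA, scrambled siRNA and untransfected libraries. Right, the length implied by the deposited count and FPKM, in bases. The single genes move in opposite directions while the sums are 93, 91 and 104, and the implied length of H3C4 spans 554 to 944 bases while that of H2BC12 stays between 897 and 906 bases.

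H4 genes, whose product pairs with H3, varied little among themselves. All 6 kept were highest in the SPRR1A siRNA library, beside 38.8% of all kept genes, but H4C9 was kept only through that library. Log2 ratios were 0.47 to 1.05 to the scrambled and 0.46 to 0.88 to the untransfected library. H4C12 (Gene 8362, chromosome 6, 27831174 to 27831560), the most abundant, had 67.6, 38.7 and 38.0 TPM in the SPRR1A siRNA, scrambled and untransfected libraries, a ratio of 1.73 (1.48 to 2.03) to the scrambled library. H4C11 had 46.4, 33.1 and 31.5 TPM and a ratio of 1.39. H4C14 and H4C15 are copies on chromosome 1, and their sum was 2.03-fold above the scrambled (1.83 to 2.25) and 1.71-fold above the untransfected library (1.56 to 1.88). H4C15 was called against scrambled siRNA, at 2.08-fold (1.84 to 2.36), but its span also covers H2AC19 and H3C15. H4C9, with 35, 18 and 24 counts, had a plain ratio of 2.07 (1.14 to 3.89) to the scrambled library and missed the call on the log2 scale. It lies wholly within the span of H2BC12, which had 4664, 2985 and 2920 counts, so its few reads are uncertain.

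Linker histones were represented by H1-2, the only H1 gene to reach 1 CPM. It had 48.1, 48.4 and 51.5 TPM in the SPRR1A siRNA, scrambled and untransfected libraries. From 558, 603 and 691 counts its ratio was 0.986 (0.877 to 1.11) against scrambled siRNA and 0.965 (0.862 to 1.08) against no transfection. These intervals cover counting error only, and the variation between cultures was not measured. H1-2 is also among the members known for polyadenylated message. The other 5 H1 genes held 51 counts with SPRR1A siRNA, 38 with scrambled siRNA and 67 without transfection.

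The stem-loop at the end of the canonical message was looked for in GENCODE release 29 transcripts, since it marks the form that poly(A) selection would miss. The 16 letters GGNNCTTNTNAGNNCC, on the transcript strand, were held by 110 of 19702 genes with a coding transcript (0.558%) and by 28 of the 66 histone genes. For 30 of the other 38 the annotated transcripts were all shorter than 500 bases and may end before it. The variants found are shown with the paired stem bases in capitals and the loop in lower case, the first 4 from H2A, H2B or H3 genes and the last 2 from H4 genes.
H2BC15, H2AC19, H3C14 and 12 others: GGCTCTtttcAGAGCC
H2BC5, H2BC4, H2BC7 and H3C8: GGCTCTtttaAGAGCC
H3C6: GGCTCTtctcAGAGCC
H2AC11: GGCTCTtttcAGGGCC
H4C11, H4C8, H4C5 and H4C2: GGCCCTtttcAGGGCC
H4C14, H4C15 and H4C9: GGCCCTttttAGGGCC
In 15 of the 21 kept genes with the element, an annotated transcript ran more than 100 bases beyond it. Those transcripts are longer than the stem-loop form. The deposited counts do not say which form was sequenced.

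The 6 members listed as known for polyadenylated message (H1-2, H2AC6, H2BC4, H2BC5, H2BC12 and H2BC21) held 55.4%, 57.8% and 54.5% of histone counts in the SPRR1A siRNA, scrambled and untransfected libraries. Their summed ratio to the scrambled library was 1.58 (1.52 to 1.64), and that of the other 60 genes was 1.74 (1.67 to 1.82). Against the untransfected library the order turned, with 1.76 (1.69 to 1.82) for the 6 and 1.69 (1.62 to 1.76) for the 60.

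By position, all groups of histone genes stood higher in the SPRR1A siRNA library. They fell into 4 groups separated by more than 300 kb, 1 on chromosome 1 with 11 genes and 3 on chromosome 6 with 34, 5 and 16 genes. The summed ratio to the scrambled library was 1.79 (1.67 to 1.91) on chromosome 1. On chromosome 6 it was 1.44 (1.36 to 1.53), 1.66 (1.59 to 1.73) and 1.75 (1.63 to 1.88), going along the chromosome. The lowest of these was in the group that holds H1-2, and it was 1.67 (1.55 to 1.79) with H1-2 left out, a step taken after the values were seen.

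Many H2A and H2B genes stand head to head, sharing the stretch between their starts. There were 10 such pairs with starts 194 to 248 bases apart, and both partners were kept in 5. In these 5 both partners were above the scrambled library, and in 4 both were above the untransfected library, H2BC13 being the exception at a log2 ratio of -0.13. Among pairs with a partner below the minimum, H2AC7 and H2BC7 stood at 1.91 and -0.48 to the scrambled library. H2AC17 and H2BC17 both stood above 2-fold, at log2 ratios of 1.16 and 1.06. H2AC11 and H2BC11 had 0.73 and 0.65. H2AC15 and H2BC15 differed, at 0.48 and 1.26, although their starts lie 194 bases apart. H2AC6 and H2BC4 had 0.68 and 0.79 to the scrambled library, but 0.29 and 1.37 to the untransfected library.

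Promoter windows, taken from 250 bases before to 50 bases after the RefSeq start, were at hand for 61 of the 66 genes. They were searched on both strands for CCAAT, for the octamer ATTTGCAT that is known from H2B promoters, and for TATAAA, and matches were counted also where they touch. CCAAT was held by 52 of the 61 (85.2%), beside 35.7% of 27305 promoters. It was in all 15 H2A, 17 H2B, 11 H3 and 6 H1 windows but in 3 of 12 H4 windows. The octamer was in 26 (42.6%), beside 1.80% of all promoters, and these were 14 of 17 H2B, 11 of 15 H2A and 1 of 11 H3 windows. That H3 window, of H3C4, is the same stretch as the window of H2AC7. The window at the other start of H3C4 held 0 octamers. Windows of head-to-head partners overlap, so a site can be counted for both genes. TATAAA was in 41 (67.2%), beside 3264 of the 27305. Of the 8 windows of genes called higher than in the scrambled library, 3 held the octamer, and so did 9 of the 22 windows of kept genes that were not called. The windows below are shown with these matches in capitals. They were chosen as the most abundant gene, a called gene with a head-to-head partner and the gene with the highest ratio. The most abundant H4 gene and H1-2, whose counting intervals held 1 against both controls, were also chosen.
H2BC12, minus strand, chr6:27146809-27147108: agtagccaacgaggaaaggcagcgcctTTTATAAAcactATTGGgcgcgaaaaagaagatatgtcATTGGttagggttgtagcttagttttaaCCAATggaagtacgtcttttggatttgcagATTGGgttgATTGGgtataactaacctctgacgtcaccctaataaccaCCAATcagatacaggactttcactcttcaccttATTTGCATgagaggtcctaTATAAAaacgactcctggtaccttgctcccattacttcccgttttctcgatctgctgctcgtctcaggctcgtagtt
H2AC17, minus strand, chr6:27893136-27893435: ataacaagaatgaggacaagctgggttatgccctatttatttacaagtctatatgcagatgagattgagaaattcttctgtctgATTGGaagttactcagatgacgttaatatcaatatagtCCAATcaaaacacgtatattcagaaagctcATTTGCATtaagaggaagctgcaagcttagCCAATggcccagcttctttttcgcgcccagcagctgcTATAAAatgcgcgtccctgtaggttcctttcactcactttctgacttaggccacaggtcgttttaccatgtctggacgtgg
H3C15, plus strand, chr1:149852358-149852657: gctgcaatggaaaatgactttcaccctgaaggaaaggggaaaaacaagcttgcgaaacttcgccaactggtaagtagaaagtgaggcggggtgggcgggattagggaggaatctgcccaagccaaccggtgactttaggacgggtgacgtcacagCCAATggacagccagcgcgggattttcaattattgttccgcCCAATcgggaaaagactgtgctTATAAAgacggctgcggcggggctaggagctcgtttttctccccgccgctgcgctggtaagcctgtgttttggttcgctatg
H4C12, minus strand, chr6:27831511-27831810: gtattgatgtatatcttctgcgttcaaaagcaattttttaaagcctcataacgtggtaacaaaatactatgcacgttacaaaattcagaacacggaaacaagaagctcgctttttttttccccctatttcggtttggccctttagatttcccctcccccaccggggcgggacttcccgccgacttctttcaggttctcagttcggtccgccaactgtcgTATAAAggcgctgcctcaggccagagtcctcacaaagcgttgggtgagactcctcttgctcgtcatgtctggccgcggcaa
H1-2, minus strand, chr6:26056421-26056720: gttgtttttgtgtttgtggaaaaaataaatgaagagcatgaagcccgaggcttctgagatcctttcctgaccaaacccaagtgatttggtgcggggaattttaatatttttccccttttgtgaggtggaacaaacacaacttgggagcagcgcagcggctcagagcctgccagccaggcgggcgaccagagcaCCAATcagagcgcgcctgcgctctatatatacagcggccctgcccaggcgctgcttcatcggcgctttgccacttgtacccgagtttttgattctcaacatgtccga

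For 5 lists of genes that work with the histones, the median log2 ratio to the scrambled library lay between -0.31 and 0.17. Of the 12 kept genes on the list of histone variants, 0 were called in any comparison. Over all kept genes 11.0% were called in either direction against the scrambled library, 10.7% against the untransfected library and 4.95% between the controls. The median log2 ratio of the variants to the scrambled library was -0.16 with a range of -0.65 to 0.64. The highest was H2AX, the variant phosphorylated at DNA breaks, whose gene also gives a stem-loop message in S phase and so sits between the classes. It had 178.7, 113.4 and 111.7 TPM in the SPRR1A siRNA, scrambled and untransfected libraries, 1.56-fold above the scrambled (1.49 to 1.64) and 1.65-fold above the untransfected library (1.58 to 1.73). The 32 S-phase genes, DNA replication factors and nucleotide enzymes, had a lower sum in the SPRR1A siRNA library. They summed to 4708, 5662 and 5692 CPM in the SPRR1A siRNA, scrambled and untransfected libraries, a ratio of 0.832 (0.826 to 0.837) to the scrambled library, with 6 of 32 above 0. GINS3, of the GINS replication complex, was the member called lower, at 0.444 and 0.468 of the scrambled and untransfected levels. Of all kept genes, 7.26% and 8.36% were called lower in these comparisons. Whether a different share of cells in S phase had a part in the histone counts was not tested.

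Of 35 genes for histone mRNA processing and decay, 0 were called higher or lower against the scrambled library, beside 11.0% of all kept genes. The median log2 ratio was 0.17. SLBP had 2180, 2062 and 2572 counts in the SPRR1A siRNA, scrambled and untransfected libraries, a ratio of 1.13 to scrambled siRNA and 1.01 to no transfection. MIF4GD, a partner of SLBP in translation, was called lower against the untransfected library at a ratio of 0.497, and had 0.515 to the scrambled library. Of 16 genes for histone transcription, NPAT had 836, 647 and 729 counts and a ratio of 1.38 to the scrambled library without being called. CDK2, the kinase that acts on NPAT, was called lower, with 749, 2201 and 2981 counts and ratios of 0.363 and 0.300. It was the only one of the 16 called against the scrambled library, where 7.26% of all kept genes were called lower. E2F2 was called lower only against the untransfected library, at 0.455, and CDC25A only between the controls, 2.43-fold higher in the scrambled library. Of all kept genes, 8.36% were called lower than in the untransfected library, and 1.51% higher between the controls. Of 24 chaperone and deposition genes 0 were called in any comparison, beside 11.0%, 10.7% and 4.95% of all kept genes. Their median log2 ratio was 0.01 against untransfected cells.

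Other short genes had smaller median log2 ratios than the histone genes. The length implied by the deposited values had a median of 561 bases over the kept histone genes. The 323 other kept genes under 700 bases had a median log2 ratio of 0.06 to the scrambled library, and 3.72% of them were called higher. Against untransfected cells their median was 0.10, and 4.64% were called higher, beside 2.35% of all kept genes. Of the 152 coding genes among them, 0 were called higher in either comparison. The 23 kept histone genes under 700 bases had a median of 0.73 to the scrambled library, and the 8 of 700 bases or more had 0.76. Against untransfected cells these medians were 0.75 and 0.85. Whether transcript length had a part in the histone values was not tested.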

How the data were processed

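Per the file headers, the authors deposited whole-number read counts, FPKM and TPM per gene. HISAT2 2.1.0 and the build GRCh38 (hg38) are named in the submitters' processing notes. How reads were counted, with which annotation, strand setting and treatment of several matches, is not given in the sources used here. Library sizes were scaled by TMM (edgeR 4.0.16, R 4.3.3). CPM and log2 ratios (prior count 2) were computed for all genes from the deposited counts, and levels between genes were compared by deposited TPM. The deposited FPKM served only to derive the length implied by a count. Sums carry exact Poisson intervals and ratios exact conditional binomial 95% intervals, which cover counting error only, since reads carried no molecular identifiers. Scripts were tested on simulated data. Gene positions and promoters come from RefSeq GRCh38.p14 and transcripts from GENCODE release 29, matched by NCBI Gene identifier for all 66 genes. The genes, lists and rules were chosen with earlier results of these data known. The members described one by one were the 12 with the highest mean TPM, every kept member called in a comparison, and the 6 of the polyadenylated list. Other members are named as having been chosen after their values were seen (H2AC11, H2AC13, H2AC15, H2BC18, H2BC7, H2BC13, H3C10, H4C9 and those at 0), as was H2AX. Of the lists of other genes, SLBP, NPAT and the called members of the histone-related lists are named, with examples of the cell type markers. Alternatives were DESeq2 (1.42.0) size factors, total counts, other filters, thresholds and prior counts, and summed TPM. All 3 columns of counts were assigned to a library by sample title.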

Additional observations from a re-analysis of the deposited data

How the results depend on the processing

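With 1 library per condition no replicate could be left out, and no paired analysis was possible because the conditions share no replicates. The summed ratio of all 66 genes stayed between 1.63 and 1.65 to the scrambled and between 1.63 and 1.72 to the untransfected library over 5 other settings. Against the untransfected library it was 1.67 with the 50 most abundant genes left out of library sizes, 1.64 with summed TPM and 1.63 without H2BC12. Between the controls it turned, to 0.994 with summed TPM and 0.995 without H2BC12. Without the gene with the most counts, H1 gave 1.43 to the scrambled library and 0.636 between the controls, H3 gave 1.89 and 1.77 to the scrambled and untransfected libraries, and H4 gave 1.65 to the scrambled library. With summed TPM, H2B gave 1.84 to the untransfected library and 1.08 between the controls, and H3 gave 1.23 to the untransfected library. Sums kept within their counting intervals in 77 of 90 cases.

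Counts of genes called moved more. At 1.5-fold, 21 histone genes were higher and 1 lower than in the scrambled library, beside 11.3% and 15.8% of all genes, 21 were higher than in the untransfected library, beside 8.81%, and 1 was higher between the controls, beside 5.08%. With a minimum of 5 CPM, 17 genes were left, with 4 higher than in the scrambled library (2.67% of all genes) and 5 higher than in the untransfected one (1.53%). At that minimum 0 were lower with SPRR1A siRNA (5.72%) or scrambled siRNA (2.06%) than without transfection. With no filter, 13 were higher and 2 lower against scrambled siRNA (2.55% and 4.23% of all genes), and 12 higher and 2 lower against no transfection (2.06% and 4.49%), where the median log2 ratio was 0.51. Between the controls 2 were then higher and 3 lower (1.87% and 2.85%). A count of 1 lower than in the scrambled library was found when the 50 most abundant genes left library sizes (7.46% of all genes), and also at a prior count of 0.5 (7.43%), and 0 lower than in the untransfected library with log2(TPM + 1) (4.76%). Chosen after seeing the data, a minimum on the mean CPM of the libraries left 5 higher than in the scrambled library (3.22%) and 0 lower between the controls (2.78%), and summing copies and the overlapping pair left 0 lower than in the untransfected library (8.36%). Kept genes with a mean under 100 counts were called higher than in the scrambled library more often, 9.16% of all such genes, than those between 100 and 1000, 3.43%.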
